A study of Homo sapiens with 8 samples.

Results

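The aminoacyl-tRNA synthetase genes are 36 genes found by their symbols in the count files: 20 for enzymes that charge transfer RNA (tRNA) in the cytosol and 16, with names ending in 2, for mitochondrial enzymes. They are 36 of 23368 genes listed, all 36 passed the filter on low counts, and they stand beside 14448 genes tested. They were measured by RNA-seq in U87MG, an established human glioblastoma cell line, with 2 libraries in each of 4 groups: untreated control cells, and cells kept in enzalutamide for 4, 24 or 48 h. Enzalutamide, a drug against prostate cancer, blocks the androgen receptor, and the study asked how expression in these cells changed with time in the drug. All groups were grown in the same serum-containing medium. The labels name no vehicle or drug dose, give no time for the control cells, and leave unsaid if libraries that share a label were cultured apart, so p-values measure only the spread between libraries, which may be technical. The extraction protocol speaks of differentiation, which no other protocol mentions.

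Each synthetase joins 1 kind of amino acid to its tRNA, and the charged tRNA is then carried to the ribosome by an elongation factor. The cytosol and the mitochondrion each have their own protein synthesis, and for most amino acids a separate nuclear gene encodes the mitochondrial enzyme. GARS and KARS are exceptions, since each gene encodes the enzyme of both compartments. Both are counted with the cytosolic genes throughout, so the mitochondrial sums, medians and counts leave them out. Several cytosolic synthetases are held in a multi-synthetase complex by the scaffold proteins AIMP1, AIMP2 and EEF1E1. When tRNA is not charged, the kinase GCN2 (gene EIF2AK4) with its partner GCN1 (gene GCN1L1) slows translation and lets the transcription factor ATF4 be made, and ATF4 acts on amino acid genes that include cytosolic synthetases.

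Totals ran from 24620833 to 37162565 counts per library, of which the 36 genes took 0.496 to 0.645%. Levels are CPM, counts scaled to a common library total, with TMM factors that set libraries level over most genes, and changes are log2 changes from edgeR's quasi-likelihood test. A gene was called where the Benjamini-Hochberg adjusted p over all genes tested was under 0.05. Over genes, which do not count as independent replicates, libraries of 1 group correlated with r between 0.992 and 0.995, and the first principal component, with 65.8% of the variance, set the 48 h libraries apart from the other 6. Of the glioma markers, VIM stood at 5610 to 13600 CPM and CD44 at 1880 to 2950 CPM, while NES reached 43.3 CPM, OLIG2 2.72 CPM and GFAP 0.633 CPM, and SOX2 had at most 1 count in a library. Of the neuronal markers SYT1 reached 7.17 CPM and SYP 4.82 CPM, and each immune, endothelial, epithelial and erythroid marker stayed at or under 0.646 CPM. In bulk RNA, fewer cells that express a gene and less of its RNA per cell cannot be told apart.

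Promoter sequence was looked up because the ATF4 and CEBPB genes rose at 48 h together with many cytosolic synthetase genes, as given with the sensing genes. RefSeq promoters (GRCh38.p14, 250 bases before to 50 after the start) matched 30 of the 36 genes, 16 cytosolic and 14 mitochondrial. They were searched on both strands for TGATGNAA, the core of the element bound by ATF4 with C/EBP proteins, and for TGATGCAA, which is 1 form of it and so overlaps it. TGATGNAA was found in 5 of 16 cytosolic promoters (31.2%), in 1 of 14 mitochondrial promoters (7.14%) and in 3.62% of all 35116 promoters in the table. TGATGCAA was found in 4 of 16 cytosolic promoters (25%), in 0 of 14 mitochondrial promoters and in 0.866% of all. The 6 windows of 30 bases that hold a match follow, 5′ to 3′ on the strand of the gene, with the motif or its reverse complement in capitals.
AARS: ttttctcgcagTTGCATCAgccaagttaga
GARS: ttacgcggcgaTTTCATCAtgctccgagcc
IARS: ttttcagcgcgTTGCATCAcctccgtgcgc
MARS: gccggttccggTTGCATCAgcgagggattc
NARS: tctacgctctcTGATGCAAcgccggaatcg
YARS2: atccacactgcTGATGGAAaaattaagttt
The AARS window lies at chr16:70289675-70289704 on the minus strand, the GARS window at chr7:30594834-30594863 on the plus strand and the IARS window at chr9:92293692-92293721 on the minus strand. The MARS window lies at chr12:57488053-57488082 on the plus strand, the NARS window at chr18:57621804-57621833 on the minus strand and the YARS2 window at chr12:32756076-32756105 on the minus strand. At 48 h AARS, GARS and NARS, and mitochondrial YARS2, were higher than control, MARS was lower and IARS was not called. By call at 48 h, TGATGNAA was in 3 of 11 cytosolic promoters of higher genes (27.3%), in 1 of 4 of genes not called (25%) and in the promoter of MARS, and in 1 of 7 mitochondrial promoters of higher genes and 0 of 6 of lower genes. A match is a description of these letters, and not a bound site. DARS, LARS, VARS, YARS, AARS2 and VARS2 had no promoter in the set, so they were not searched.

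In untreated cells most cytosolic genes had higher levels per length than the mitochondrial ones. Per length, which is CPM divided by the length in kilobases of the longest principal transcript in GENCODE, the median of the means of the control libraries was 66 CPM per kb over the 20 cytosolic genes and 9 CPM per kb over the 16 mitochondrial genes. SARS, for serine, was the highest cytosolic gene at 188.8 ± 10.4 CPM per kb (SD, n = 2 libraries), ahead of AARS, for alanine, at 140.5 ± 7.23 and GARS, for glycine, at 127.3 ± 9.35 CPM per kb. The control libraries of AARS, at 145.6 and 135.3 CPM per kb, and of GARS, at 133.9 and 120.6, did not overlap, but lay closer than the spread within each gene. FARSB, the beta subunit of the phenylalanine enzyme, was the lowest cytosolic gene at 25.4 ± 0.1 CPM per kb, although FARSA, the alpha subunit of the same enzyme, stood at 57.1 ± 3.5 CPM per kb. CARS2, for mitochondrial cysteine, was the highest mitochondrial gene at 95.6 ± 0.635 CPM per kb, followed by IARS2, for isoleucine, at 49.6 ± 0.893. MARS2, PARS2 and NARS2, for mitochondrial methionine, proline and asparagine, had 3.37 ± 0.145, 3.4 ± 0.0583 and 3.5 ± 0.238 CPM per kb, and did not differ beyond their spread.

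Among the 14 amino acids with a gene for each compartment, the cytosolic gene was the higher per length in 13, with a median ratio of 6.88. The ratio of the levels per length was greatest for serine at 27, methionine at 26.7 and asparagine at 21.9. Cysteine ran the other way, with CARS at 60.4 ± 3.8 and CARS2 at 95.6 ± 0.635 CPM per kb (SD, n = 2), a ratio of 0.632. Histidine, at 2.11, and isoleucine, at 2.14, were the closest pairs after cysteine.

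**Figure D1:**
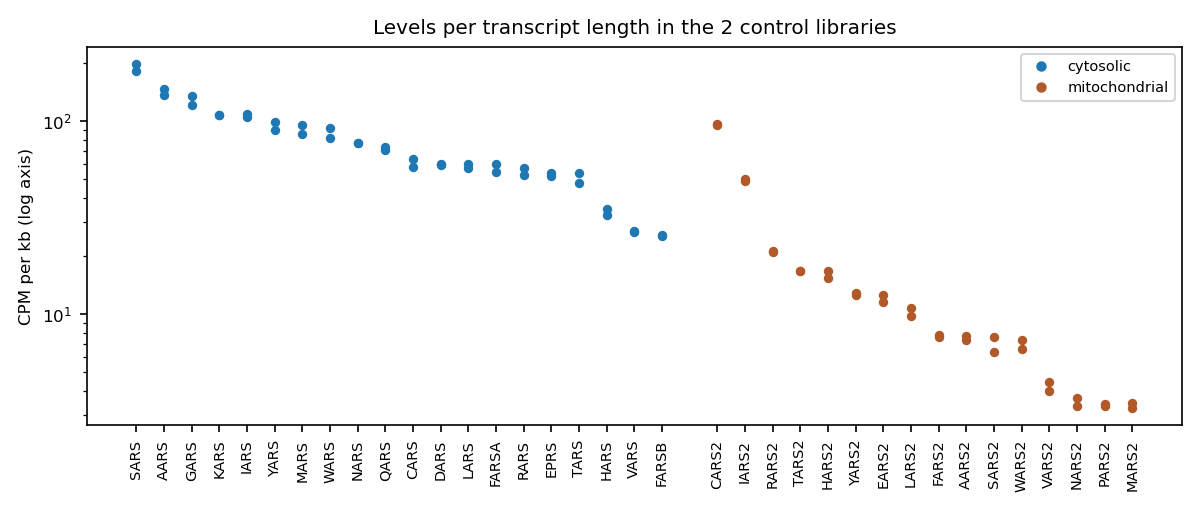
Level of each synthetase gene in the 2 control libraries, in CPM per kb of transcript on a log axis; each point is 1 library, with cytosolic genes on the left and mitochondrial genes on the right, each ordered by mean level. The cytosolic genes lie between 25.4 and 188.8 CPM per kb on average, and CARS2, at 95.6, is the one mitochondrial gene above the cytosolic median of 66.

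Over the time in enzalutamide the summed level of the 20 cytosolic genes was 4842.5 and 4605.8 CPM in control, 4611.4 and 4603.1 CPM at 4 h, 4118.9 and 4225.4 CPM at 24 h, and 6721.3 and 6377.8 CPM at 48 h. The 24 h libraries were thus the lowest and the 48 h libraries the highest, with no overlap with control. The summed level of the 16 mitochondrial genes was 727.1 and 718.7 CPM in control, 667.6 and 686.5 CPM at 4 h, 722.7 and 737.4 CPM at 24 h, and 700.8 and 716.1 CPM at 48 h. With TMM the mitochondrial sum was lowest at 4 h, and at 48 h it stayed near control. This order depends on the scaling, since the TMM factors were 0.87 and 0.899 at 48 h, against 1.07 and 1.08 in control. With library totals alone the mitochondrial sum would be lowest at 48 h, below both control libraries.

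After 48 h of enzalutamide, 13 of 20 cytosolic synthetase genes were higher than control and 1, MARS, was lower, by a median log2 change of 0.32 over the 20, while 8 of 16 mitochondrial genes were higher and 7 lower, by a median of 0.13. With library totals in place of TMM these counts were 8 higher and 7 lower of the cytosolic genes (median 0.04) and 3 higher and 8 lower of the mitochondrial genes (median -0.15), so the balance depends on the scaling. Of all 14448 genes tested, 66.9% were called at 48 h, 33.3% higher and 33.5% lower, with a median of -0.02. Library totals shift that median to -0.3 and turn the 4814 higher and 4847 lower genes into 2742 higher and 6729 lower. The change of scaling moves all genes of a comparison by nearly the same amount. The cytosolic median thus stays above that of all genes under both by construction, which is no check of it. Genes with levels in the range of the cytosolic members, 2400 in number, were higher in 58.3% and lower in 21.6%, with a median of 0.29, close to the members' own. In the wider range of the mitochondrial members, 40.4% of 9091 genes were higher and 34.1% lower, with a median of 0.07. Both 48 h libraries lay above both control libraries for 15 cytosolic genes and below them for 3, where 40.2% of all genes lay above and 41.8% below.

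GARS had 800.8 and 784.1 CPM at 48 h, against 352.6 and 317.8 CPM in control, so that it rose 2.36-fold (log2 change 1.24, SE 0.07, edgeR adjusted p = 5.03e-08). It was the one cytosolic gene past 2-fold, where 766 of all 14448 genes tested were called higher by 2-fold or more. YARS, for tyrosine, had 574.4 and 539.2 CPM at 48 h, against 319.4 and 291.7 CPM in control (log2 change 0.87, SE 0.06, edgeR adjusted p = 5.13e-07). AARS had 828.8 and 821.4 CPM at 48 h, against 506.1 and 470.6 CPM in control (0.76, SE 0.06, edgeR adjusted p = 7.95e-07). In each of these 3 genes both 48 h libraries lay above both control libraries.

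VARS, for valine, had 194.8 and 181.2 CPM at 48 h, against 116.6 and 114.1 CPM in control (log2 change 0.7, SE 0.07, edgeR adjusted p = 3.73e-06). KARS, for lysine, had 361 and 324.8 CPM at 48 h, against 214.4 and 215.5 CPM in control (0.67, SE 0.06, edgeR adjusted p = 3.47e-06). With GARS, this means that both genes that supply the enzyme of the 2 compartments were among the 5 largest rises. SARS (0.65, SE 0.07), EPRS, the joint enzyme for glutamate and proline (0.56, SE 0.06), and TARS, for threonine (0.5, SE 0.07), also rose. All 8 of these genes remained called under every other setting and with each library left out. The smaller rises of FARSA (0.38), QARS, for glutamine (0.36), CARS (0.27), RARS, for arginine (0.27) and NARS (0.26) were not called with library totals, and CARS was not called without control replicate 2 either (0.21, edgeR adjusted p = 0.0536).

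MARS, the cytosolic methionine enzyme, had 178.9 and 174.1 CPM at 48 h, against 276.1 and 247.5 CPM in control, and fell by 0.57 on the log2 scale (SE 0.07, edgeR adjusted p = 1.51e-05). It stayed called as lower under every other setting and with each library left out. In the annotation its exons share 62 bases with those of DDIT3 on the opposite strand. DDIT3 rose at 48 h, opposite to MARS, and since use of strand in the counting is not stated, reads of that stretch cannot be assigned to 1 of the genes. The cytosolic genes with the smallest changes at 48 h were HARS, for histidine (log2 change -0.01, SE 0.07), and FARSB (-0.06, SE 0.06), and neither was called, though with library totals both were called lower (-0.29, edgeR adjusted p = 0.00286, and -0.34, adjusted p = 0.000839). Without 48 h replicate 1 a further cytosolic gene was called lower, 2 in all. FARSB, with 84.5 and 79.9 CPM at 48 h, against 85.8 and 85.3 CPM in control, thus moved less than FARSA, with 145.3 and 124.4 CPM at 48 h, against 108 and 99.1 CPM in control, though the proteins form 1 enzyme. The difference between the 2 subunits was not tested.

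Among the 8 cytosolic genes of the multi-synthetase complex, 4 were higher at 48 h (KARS, EPRS, QARS and RARS), MARS was lower, and DARS, for aspartate, IARS and LARS, for leucine, were not called, with a median of 0.18. Of the other 12 cytosolic genes 9 were higher and 3 were not called, with a median of 0.44. Grouped by the fold of the catalytic site, class I genes were higher in 5 of 9 and class II genes in 7 of 10, EPRS having a site of each class. In the level range of the cytosolic members 58.3% of genes were higher and 21.6% lower. With library totals the complex had 2 higher (EPRS and KARS) and 4 lower (DARS, IARS, LARS and MARS), the other 12 had 6 higher and 3 lower, and 2 of 9 class I and 5 of 10 class II genes were higher. No difference between these groups was tested.

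**Figure D2:**
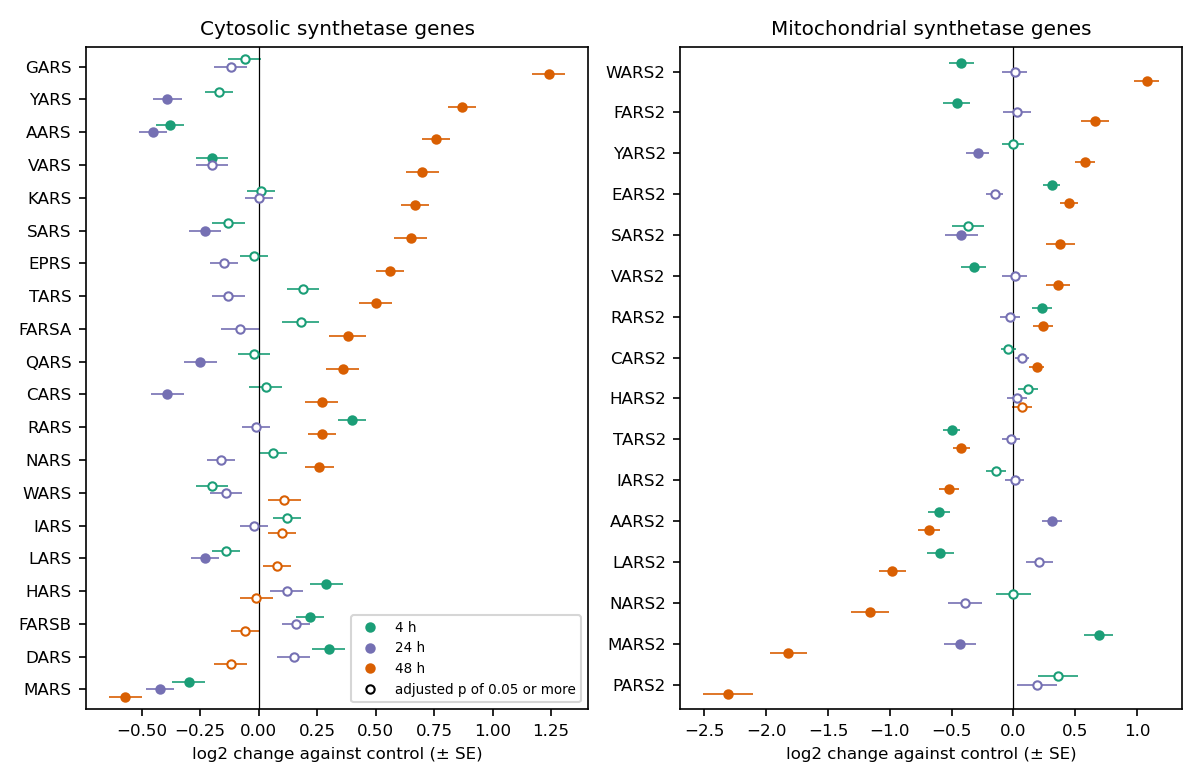
Log2 change against control with its SE for each cytosolic (left) and mitochondrial (right) gene at 4, 24 and 48 h; filled points passed an edgeR adjusted p of 0.05 and open points did not, and the horizontal scales of the panels differ. At 48 h the cytosolic genes run from MARS at -0.57 to GARS at 1.24, mostly above 0 with TMM but 8 higher and 7 lower with library totals, and the mitochondrial genes spread on either side of 0.

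Of the mitochondrial genes at 48 h, PARS2 had 1.33 and 1.89 CPM, against 8.07 and 7.88 CPM in control, and fell by 2.31 on the log2 scale (SE 0.2, edgeR adjusted p = 1.45e-06), 4.95-fold. These levels rest on 39 and 55 counts at 48 h, against 285 and 274 counts in control. MARS2 had 2.69 and 3.06 CPM at 48 h, against 10.5 and 9.87 CPM in control, a 3.54-fold fall (log2 change -1.82, SE 0.15, edgeR adjusted p = 9.45e-07). NARS2 had 3.67 and 4.23 CPM at 48 h, against 8.39 and 9.23 CPM in control, a 2.23-fold fall (-1.16, SE 0.15, edgeR adjusted p = 3.65e-05). These genes, the lowest per length in control, were also the only mitochondrial genes past 2-fold downward, 3 of 16. Of all 14448 genes tested, 2290 were called lower by 2-fold or more at 48 h.

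LARS2, for leucine, had 21.5 and 27.9 CPM at 48 h, against 51.1 and 46.2 CPM in control (log2 change -0.98, SE 0.11, edgeR adjusted p = 1.47e-05). AARS2, for alanine, had 17.6 and 18.4 CPM at 48 h, against 29.5 and 28.4 CPM in control (-0.68, SE 0.09, edgeR adjusted p = 3.13e-05). IARS2 (-0.52, SE 0.08) and TARS2, for threonine (-0.42, SE 0.07), were lower as well. All 7 falls remained called under every other setting and with each library left out. In the annotation MARS2 has 1 exon and PARS2 has 2 exons, and genes with few exons were more often lower at 48 h: 53.6% of 278 genes with 1 exon, 48.1% of 539 with 2 exons and 32.3% of 11473 with 3 or more. The part of exon number in these falls was not tested.

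In the other direction, WARS2, for tryptophan, had 43.6 and 38.8 CPM at 48 h, against 20.5 and 18.5 CPM in control, and rose 2.11-fold (log2 change 1.08, SE 0.1, edgeR adjusted p = 2.5e-06). FARS2, for phenylalanine, had 21.7 and 19.3 CPM at 48 h, against 12.8 and 13.2 CPM in control (0.66, SE 0.11, edgeR adjusted p = 0.000211). YARS2, for tyrosine, had 39.6 and 40.8 CPM at 48 h, against 27.1 and 26.7 CPM in control (0.58, SE 0.08, edgeR adjusted p = 0.000101). These 3 rises held under every other setting and with each library left out. EARS2, for glutamate, had 63.2 and 66.5 CPM at 48 h, against 45.4 and 49.3 CPM in control (0.45, SE 0.07, edgeR adjusted p = 0.000178), and lost its call with library totals.

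The remaining 4 mitochondrial rises were smaller, each was lost without some library and with library totals, and 5 rises in all were left without control replicate 2. SARS2, for serine, with 19.8 and 17.7 CPM at 48 h, against 15.7 and 13.1 CPM in control (log2 change 0.38, edgeR adjusted p = 0.0177), was not called without control replicate 2 (adjusted p = 0.154) or without 48 h replicate 1 (adjusted p = 0.0712). VARS2 (0.36) was not called without control replicate 2 (edgeR adjusted p = 0.0736), and CARS2 (0.19) not without control replicate 1 (adjusted p = 0.0576). RARS2, for arginine (0.24), was not called without control replicate 1 (edgeR adjusted p = 0.0586), control replicate 2 (adjusted p = 0.082) or 48 h replicate 1 (adjusted p = 0.0576). A minimum of 5 CPM in 2 libraries also ended the calls of SARS2, CARS2 and RARS2 (edgeR adjusted p = 0.0506, 0.0888 and 0.0843), and fits of only the 2 groups those of CARS2 and RARS2 (adjusted p = 0.073 and 0.0774). HARS2 was the mitochondrial gene with the smallest change and was not called (0.07, SE 0.08), though with library totals it was called lower (-0.21, edgeR adjusted p = 0.0378). SARS2 shares 1492 bases of exon with a readthrough gene on its own strand and 349 with MRPS12 on the other, and HARS and HARS2 share 402 bases on opposite strands, so reads there are uncertain. The same holds for YARS, WARS, AARS2 and EARS2, which share 235 to 370 bases with other protein-coding genes on the opposite strand. CARS, DARS, FARSA, GARS, LARS, NARS2 and WARS2 share exon bases with noncoding transcripts on the opposite strand.

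After 4 h the changes were smaller and went both ways. Of the cytosolic genes 4 were higher and 3 lower (median -0.01), and of the mitochondrial genes 3 were higher and 6 lower (median -0.09), where 28.6% of all genes were called, 15% higher and 13.6% lower. With library totals these counts were 3 higher and 7 lower, and 2 higher and 7 lower. Without either 48 h library they were 7 higher and 6 lower, and 4 higher and 8 lower. RARS had 151.2 and 158.3 CPM at 4 h, against 112.9 and 122.4 CPM in control (log2 change 0.4, SE 0.06, edgeR adjusted p = 0.00103). AARS had 366.1 and 383.6 CPM at 4 h, against 506.1 and 470.6 CPM in control (-0.38, SE 0.06, edgeR adjusted p = 0.000789). RARS and AARS were the cytosolic calls that held under all settings and with each library left out. The changes nearest 0 were those of NARS2 and YARS2, at 0.00 each, and KARS, at 0.01.

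The other cytosolic calls at 4 h were lost without some library. DARS (log2 change 0.3) was not called without control replicate 2 (edgeR adjusted p = 0.0539) or 4 h replicate 1 (adjusted p = 0.075). HARS (0.29) was not called without control replicate 2 (edgeR adjusted p = 0.115) or either 4 h library (adjusted p = 0.072 and 0.0755). MARS (-0.3), with 214.9 and 211.8 CPM at 4 h, against 276.1 and 247.5 CPM in control, was not called without control replicate 1 (edgeR adjusted p = 0.077) or 4 h replicate 2 (adjusted p = 0.0558). FARSB (0.22) and VARS (-0.2) were not called without any 1 of the control, 4 h or 24 h libraries, with edgeR adjusted p of 0.0567 to 0.192 and of 0.066 to 0.22. FARSB was also not called with library totals (edgeR adjusted p = 0.0907) or with no filter (adjusted p = 0.0582), and VARS not by DESeq2 (adjusted p = 0.0624).

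The mitochondrial genes moved further at 4 h. MARS2 had 16.6 and 16.2 CPM at 4 h, against 10.5 and 9.87 CPM in control, and rose 1.61-fold (log2 change 0.69, SE 0.12, edgeR adjusted p = 0.00182). AARS2 had 18.4 and 19.6 CPM at 4 h, against 29.5 and 28.4 CPM in control, 1.52-fold lower (-0.6, SE 0.09, edgeR adjusted p = 0.000415). LARS2 had 31 and 33.6 CPM at 4 h, against 51.1 and 46.2 CPM in control (-0.59, SE 0.11, edgeR adjusted p = 0.00239). TARS2 had 31.6 and 32.8 CPM at 4 h, against 45.4 and 45.5 CPM in control (-0.5, SE 0.07, edgeR adjusted p = 0.000468). In each of these 4 genes both 4 h libraries lay on 1 side of both control libraries, as they did for 68.6% of all genes, and the calls held under all settings and with each library left out.

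FARS2 (log2 change -0.46), with 8.96 and 9.91 CPM at 4 h, against 12.8 and 13.2 CPM in control, was not called without control replicate 2 (edgeR adjusted p = 0.0647) or 4 h replicate 1 (adjusted p = 0.0863). WARS2 (-0.42), with 15.1 and 14.1 CPM at 4 h, against 20.5 and 18.5 CPM in control, was not called without control replicate 1 (edgeR adjusted p = 0.0997) or 4 h replicate 2 (adjusted p = 0.096). EARS2 (0.31) was not called without control replicate 1 (edgeR adjusted p = 0.0953) or either 4 h library (adjusted p = 0.0509 and 0.0675). RARS2 (0.23) and VARS2 (-0.32) were not called without any 1 of the control, 4 h or 24 h libraries, with edgeR adjusted p of 0.0775 to 0.193 and of 0.0626 to 0.23. By DESeq2 neither was called (adjusted p = 0.0911 and 0.0551), and RARS2 was not called with DESeq2 size factors, library totals or no filter either (edgeR adjusted p = 0.0512, 0.123 and 0.0996).

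After 24 h the cytosolic genes leaned downward. Of these 7 were lower and 0 higher (median -0.15, and -0.21 with library totals), where 22.3% of all genes were called, 12.9% higher and 9.39% lower, with a median of 0.01. In the level range of the cytosolic members 10.9% of genes were lower and 18.2% higher. At an unadjusted p under 0.05 by edgeR 10 cytosolic genes were lower and 2 higher, and both DESeq2 and limma-voom called 9 lower and 0 higher. Without either 48 h library edgeR called 10 lower and 2 higher. AARS had 352.3 and 360.5 CPM at 24 h, against 506.1 and 470.6 CPM in control (log2 change -0.45, SE 0.06, edgeR adjusted p = 0.000364). MARS had 194.2 and 196 CPM at 24 h, against 276.1 and 247.5 CPM in control (-0.42, SE 0.06, edgeR adjusted p = 0.00102). CARS had 121 and 126.9 CPM at 24 h, against 169.5 and 155.1 CPM in control (-0.39, SE 0.07, edgeR adjusted p = 0.00211). YARS had 233.5 and 234 CPM at 24 h, against 319.4 and 291.7 CPM in control (-0.39, SE 0.06, edgeR adjusted p = 0.00165). These 4 falls held under all settings and with each library left out.

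QARS, with 171.4 and 168.5 CPM at 24 h, against 206 and 198.9 CPM in control (log2 change -0.25, edgeR adjusted p = 0.0209), was not called without any 1 of the control or 24 h libraries (adjusted p = 0.0705 to 0.152). LARS (-0.23) lost its call without the same 4 libraries (edgeR adjusted p = 0.0621 to 0.169), and SARS (-0.23) without any 1 of the control, 4 h or 24 h libraries (adjusted p = 0.0534 to 0.235). KARS (0.00), RARS (-0.01) and, of the mitochondrial genes, IARS2, VARS2 and WARS2 (0.01 each) changed least.

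Of the mitochondrial genes 1 was higher and 3 lower at 24 h, with a median of 0.01, and none of these calls survived the removal of each library. AARS2 had 35.2 and 36.8 CPM at 24 h, against 29.5 and 28.4 CPM in control (log2 change 0.31, SE 0.08, edgeR adjusted p = 0.0192), and was not called without any 1 of the control or 24 h libraries (adjusted p = 0.082 to 0.159) or with library totals (adjusted p = 0.058). MARS2 had 8.16 and 6.87 CPM at 24 h, against 10.5 and 9.87 CPM in control (-0.43, SE 0.13, edgeR adjusted p = 0.0323). YARS2 had 20.7 and 23.3 CPM at 24 h, against 27.1 and 26.7 CPM in control (-0.29, SE 0.09, edgeR adjusted p = 0.0314). Both lost the call without any 1 of the control, 4 h or 24 h libraries, with adjusted p of 0.054 to 0.251 for MARS2 and of 0.0543 to 0.258 for YARS2. SARS2 had 11.5 and 9.87 CPM at 24 h, against 15.7 and 13.1 CPM in control (-0.42, SE 0.13, edgeR adjusted p = 0.0353), and was not called without control replicate 1 or without any 1 of the 4 h and 24 h libraries (adjusted p = 0.0566 to 0.276).

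Several genes were called in opposite directions at different times against the same control libraries. AARS was lower at 4 and 24 h and higher at 48 h, with 506.1 and 470.6 CPM in control, 366.1 and 383.6 CPM at 4 h, 352.3 and 360.5 CPM at 24 h, and 828.8 and 821.4 CPM at 48 h. CARS, QARS, SARS and YARS were lower at 24 h and higher at 48 h, and VARS was lower at 4 h and higher at 48 h. Of the mitochondrial genes, FARS2, VARS2 and WARS2 were lower at 4 h and higher at 48 h, and SARS2 and YARS2 were lower at 24 h and higher at 48 h. AARS2 was lower, higher and lower, and MARS2 was higher, lower and lower, at 4, 24 and 48 h. MARS was lower at all 3 times, with log2 changes of -0.3, -0.42 and -0.57. RARS, EARS2 and RARS2 were higher at 4 and 48 h, and LARS2 and TARS2 were lower at 4 and 48 h. The calls among these that rested on single libraries are those named with each time.

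**Figure D3:**
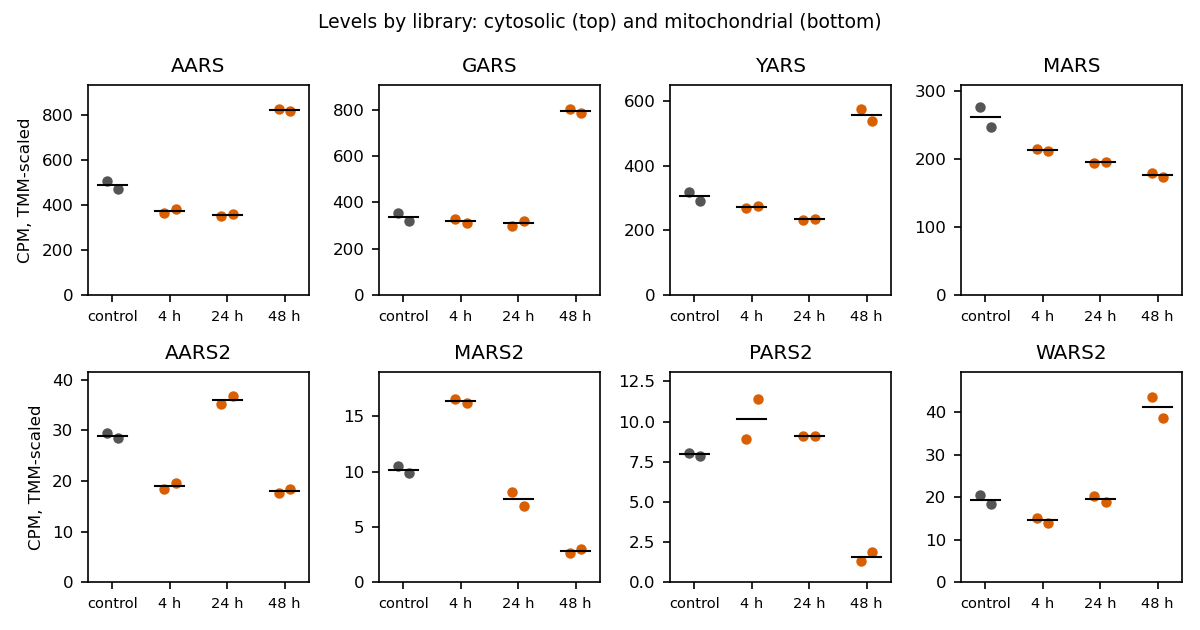
Levels in CPM, scaled with TMM, of 4 cytosolic (top) and 4 mitochondrial (bottom) genes in control and after 4, 24 and 48 h; each point is 1 library, black bars are means of 2 libraries, and every axis starts at 0. AARS, GARS and YARS are highest at 48 h, MARS is lower than control at each time, AARS2 moves down, up and down, and PARS2 reaches 1.33 and 1.89 CPM at 48 h.

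The steps between times, which share libraries with the comparisons above, differed in direction for the cytosolic genes. From 4 to 24 h, in which 41.5% of all genes were called, 21.2% higher and 20.3% lower, 7 cytosolic genes were lower and 0 higher by edgeR, 7 lower and 0 higher by DESeq2, and 8 lower and 0 higher by limma-voom. At an unadjusted p under 0.05 by edgeR 11 were lower and 0 higher. Of the mitochondrial genes 6 were higher and 5 lower, though 2 lower without either 4 h library or 24 h replicate 1 and 3 lower without 24 h replicate 2. AARS2 (log2 change 0.92, SE 0.08, edgeR adjusted p = 9.82e-06) and LARS2 (0.8, SE 0.11, adjusted p = 0.000182) were higher at 24 h than at 4 h, and MARS2 was lower (-1.13, SE 0.13, adjusted p = 4.11e-05). Only CARS (-0.42) and RARS (-0.41) of the 7 cytosolic falls were called with each library left out. Without 1 library the count of cytosolic falls ran from 2, without 24 h replicate 1, to 11, without either 48 h library, and it was 3 without either 4 h library and 4 without 24 h replicate 2.

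From 24 to 48 h, in which 66.8% of all genes were called, 31.5% higher and 35.3% lower, 15 cytosolic genes were higher and 2 lower (median 0.54, and 0.32 with library totals), and 7 mitochondrial genes were higher and 7 lower (median 0.08, but -0.13 with library totals). In the level range of the cytosolic members 54% of genes were higher, with a median of 0.23. GARS (log2 change 1.36, SE 0.07, edgeR adjusted p = 2.76e-08), YARS (1.25, SE 0.06, adjusted p = 3.61e-08) and AARS (1.21, SE 0.06, adjusted p = 2.75e-08) were more than 2-fold higher at 48 h than at 24 h. DARS (-0.27, SE 0.07, edgeR adjusted p = 0.00322) and FARSB (-0.22, SE 0.06, adjusted p = 0.0106) were the cytosolic genes that fell, FARSB not without 24 h replicate 2 (adjusted p = 0.0888) or by DESeq2 (adjusted p = 0.0595). Of the 15 cytosolic rises 12 held under every other setting and with each library left out. LARS (0.31), RARS (0.28) and WARS (0.25) were not called with library totals (edgeR adjusted p = 0.165, 0.385 and 0.678), nor was WARS without 24 h replicate 1 (adjusted p = 0.104). Of the mitochondrial rises RARS2 (0.27) was not called without 24 h replicate 1 (edgeR adjusted p = 0.0929) and VARS2 (0.35) not without 24 h replicate 2 (adjusted p = 0.0714), and with library totals neither was (log2 changes 0.05 and 0.13, adjusted p = 0.567 and 0.261). PARS2 (-2.5, SE 0.19, edgeR adjusted p = 7.18e-07), MARS2 (-1.39, SE 0.15, adjusted p = 8.87e-06) and LARS2 (-1.19, SE 0.11, adjusted p = 3.06e-06) fell most among the mitochondrial genes, and WARS2 rose most (1.06, SE 0.1, adjusted p = 2.63e-06).

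For the 14 amino acids with a gene for each compartment, the calls at 48 h fell into several kinds. Both genes were higher for 6 amino acids (arginine, cysteine, phenylalanine with FARSA, serine, tyrosine and valine). The cytosolic gene was higher and the mitochondrial gene lower for 3 (alanine, asparagine and threonine), and both were lower for methionine. For isoleucine and leucine only the mitochondrial gene was called, and it was lower, and for tryptophan only WARS2 was called, and it was higher. Neither histidine gene was called. These counts depend on the scaling. With library totals both genes were higher for tyrosine alone, both were lower for 4 amino acids (histidine, isoleucine, leucine and methionine), and the cytosolic gene was higher and the mitochondrial gene lower for 2 (alanine and threonine). With those totals neither gene was called for cysteine and arginine, and asparagine kept the call of NARS2 alone. Of single genes at 48 h, 33.3% of all tested were higher and 33.5% lower.

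The log2 ratio of cytosolic to mitochondrial CPM, in which the scaling of a library cancels, was at 48 h 5.56 and 5.48 for alanine, against 4.1 and 4.05 in control, a difference of 1.44. For asparagine the ratio was 6.29 and 6.06 at 48 h, against 4.82 and 4.69 in control, a difference of 1.42. For methionine it was 6.06 and 5.83 at 48 h, against 4.72 and 4.65 in control, a difference of 1.26, with the log2 changes of -1.82 for MARS2 and -0.57 for MARS given above. The difference was 1.07 for leucine and 0.92 for threonine. Tryptophan went the other way, with 2.77 and 2.83 at 48 h, against 3.78 and 3.77 in control, a difference of -0.97. Over the 14 pairs both 48 h libraries lay above both controls in 9 pairs and below in 2, with a median difference of 0.32. For the levels of single genes, which are not ratios, that was so at 48 h in 40.2% above and 41.8% below. Genes in the level range of the cytosolic members had a median log2 change of 0.29 at 48 h, and those in the mitochondrial range 0.07. What part of the ratio differences goes with level was not tested. The ratios are a description, and no test of them was made.

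At 4 h the ratio lay above control in 10 pairs and below in 2, with a median difference of 0.19, where the levels of 68.6% of all genes lay wholly above or below control. The largest at 4 h were 0.7 for threonine and 0.65 for phenylalanine, and methionine, at -0.99, moved opposite to its 48 h value. At 24 h it lay above control in 1 pair and below in 7, with a median of -0.1, where the levels of 66.2% of all genes lay wholly above or below control, and alanine, at -0.77, moved furthest.

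**Figure D4:**
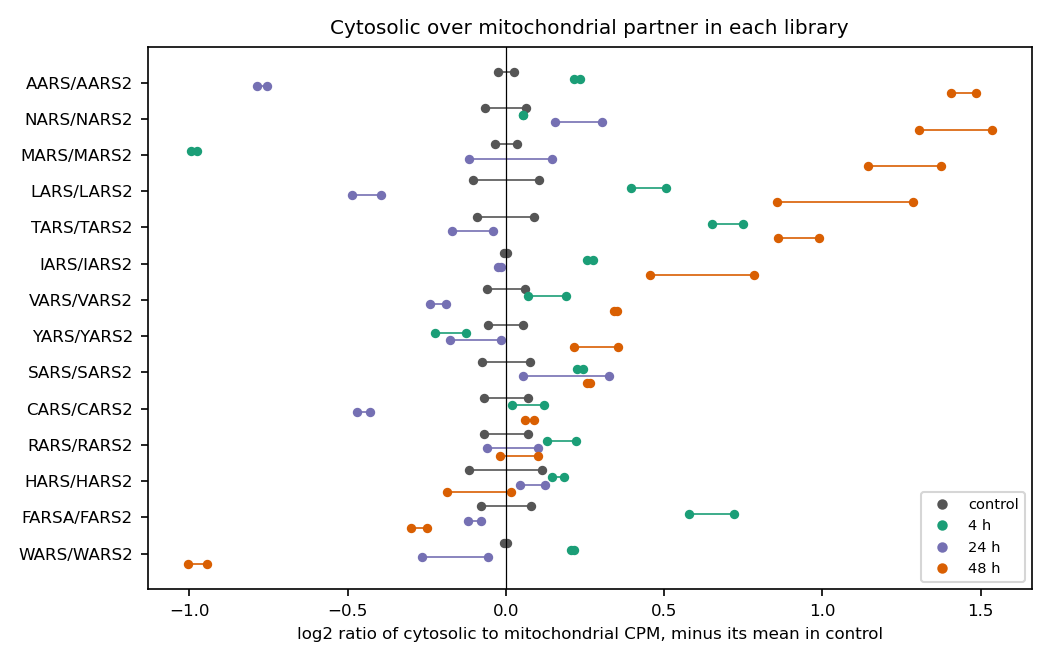
Log2 ratio of the cytosolic to the mitochondrial gene for 14 amino acids, minus its mean in control; each point is 1 library, a line joins the 2 libraries of a group, and pairs are ordered by the difference at 48 h. Alanine, asparagine and methionine stand highest at 48 h, at 1.44, 1.42 and 1.26 on average, and tryptophan lowest, at -0.97.

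Among the proteins that work beside the synthetases, all 4 genes of the complex that delivers charged tRNA in the cytosol were higher at 48 h: EEF1D (log2 change 0.88, SE 0.09), EEF1B2 (0.75, SE 0.08), EEF1G (0.68, SE 0.08) and EEF1A1 (0.66, SE 0.06), the last with 4368.2 and 3911.1 CPM at 48 h, against 2697.3 and 2549.1 CPM in control. Of the scaffolds of the multi-synthetase complex AIMP1 was higher (0.69, SE 0.06, edgeR adjusted p = 3.19e-06), and AIMP2 (-0.17) and EEF1E1 (0.18) were not called. XPOT, which exports tRNA from the nucleus, rose by 0.68 (SE 0.06, edgeR adjusted p = 3.18e-06), and AARSD1 (0.61, SE 0.09) and DTD1 (0.57, SE 0.1), which clear wrongly charged tRNA, rose as well. These calls at 48 h held under every other setting and with each library left out. Of all genes tested, 33.3% were higher at 48 h. In the level range of the cytosolic members that share was 58.3%, and in the mitochondrial range 40.4%. EEF1A1 and EEF1G lay above both ranges.

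Of 6 partners of mitochondrial charging, 2 were higher and 2 lower at 48 h, close to the 33.3% and 33.5% of all genes. TUFM, the mitochondrial elongation factor, had 382.8 and 318.4 CPM at 48 h, against 241.6 and 220.7 CPM in control (log2 change 0.6, SE 0.08, edgeR adjusted p = 7.04e-05). MTFMT, which adds a formyl group to the methionine that MARS2 loads, had 6.36 and 6.91 CPM at 48 h, against 14 and 12.3 CPM in control (-0.98, SE 0.12, edgeR adjusted p = 2.81e-05), so that both genes of this step were lower. Mitochondria make glutamine-charged tRNA from glutamate-charged tRNA, loaded by EARS2, with a 3-subunit amidotransferase. Of its subunits QRSL1 was higher (0.37, edgeR adjusted p = 0.00154), though not with library totals (adjusted p = 0.349), GATC was lower (-0.34, adjusted p = 0.00606), though not without control replicate 2 (adjusted p = 0.0693), and PET112, an older symbol of GATB, was not called (-0.06), except as lower with library totals (-0.34, adjusted p = 0.00491). In the selenocysteine pathway SEPSECS was lower (-0.68, SE 0.13, edgeR adjusted p = 0.000913). PSTK of the same pathway was higher (0.48, edgeR adjusted p = 0.0482), but lost its call without any 1 of the control or 24 h libraries or without 48 h replicate 1 (adjusted p = 0.056 to 0.208), and by DESeq2 (adjusted p = 0.0794) and limma-voom (adjusted p = 0.0554). RPP30, a subunit of ribonuclease P, was higher (0.33, edgeR adjusted p = 0.00311), though not with library totals (adjusted p = 0.613). PTRH2 was higher (0.29, edgeR adjusted p = 0.0193), though not without control replicate 2 (adjusted p = 0.173) or with library totals (adjusted p = 0.946).

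At 4 h the largest changes among these partner genes were the rises of PTRH2, a peptidyl-tRNA hydrolase (log2 change 0.72, SE 0.09, edgeR adjusted p = 0.00023), and of the selenocysteine kinase gene PSTK (0.73, SE 0.19, adjusted p = 0.0161). The call of PSTK was lost without either control library (edgeR adjusted p = 0.0752 and 0.0924) or 4 h replicate 1 (adjusted p = 0.13). PET112 was lower at 4 h (-0.43, SE 0.08, edgeR adjusted p = 0.0032). TRNT1, which adds the CCA end of tRNA, was higher (0.34, edgeR adjusted p = 0.0175), except without control replicate 2 (adjusted p = 0.162) or either 4 h library (adjusted p = 0.111 and 0.0626). EEF1B2 (0.26) and AIMP1 (0.2) were higher, but not without any 1 of the control, 4 h or 24 h libraries (edgeR adjusted p = 0.0595 to 0.213 and 0.0742 to 0.179) or with library totals (adjusted p = 0.0616 and 0.111). At 24 h AIMP2 was lower (-0.43, SE 0.11, edgeR adjusted p = 0.0196), except without control replicate 1 (adjusted p = 0.171), 24 h replicate 1 (adjusted p = 0.0722) or 24 h replicate 2 (adjusted p = 0.157). PET112 (-0.27) and SSB, the La protein that binds new tRNA (-0.24), were lower at 24 h, but not without any 1 of the control, 4 h or 24 h libraries (edgeR adjusted p = 0.0568 to 0.256 and 0.0556 to 0.262).

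Of 7 listed genes that sense uncharged tRNA or can act after it, 5 were higher at 48 h, where 33.3% of all genes tested were. In the level range of the cytosolic members 58.3% were higher. Only EIF2AK4 and GCN1L1 of the list encode the sensing kinase GCN2 and its partner. The gene of GCN2 itself was not called, and GCN1L1 lost its call with library totals. The charging of tRNA was not measured, and what raised the other genes was not tested. ATF4 had 1023.2 and 931.2 CPM at 48 h, against 325.9 and 277.2 CPM in control, and rose 3.24-fold (log2 change 1.7, SE 0.08, edgeR adjusted p = 2.13e-08). DDIT3, the ATF4-dependent factor CHOP, had 1418.1 and 1222.8 CPM at 48 h, against 72.8 and 59.9 CPM in control (4.31, SE 0.12, edgeR adjusted p = 4.55e-10). TRIB3, a pseudokinase induced by ATF4 and CHOP, had 325.9 and 313 CPM at 48 h, against 51.1 and 36.1 CPM in control (2.87, SE 0.14, edgeR adjusted p = 2.89e-08). CEBPB, a C/EBP factor, had 233 and 218.4 CPM at 48 h, against 103.1 and 105.3 CPM in control (1.12, SE 0.08, edgeR adjusted p = 3.18e-07).

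Other genes of that list changed less at 48 h. GCN1L1 was higher (log2 change 0.48, SE 0.1, edgeR adjusted p = 0.00102), though not with library totals (adjusted p = 0.111). EIF2AK4 had 145.6 and 152.4 CPM at 48 h, against 136.9 and 146.3 CPM in control, and was not called (0.07, SE 0.06), except as lower with library totals (-0.2, edgeR adjusted p = 0.0183). ASNS, asparagine synthetase and a known target of ATF4, had 248.4 and 211 CPM at 48 h, against 228.8 and 194.8 CPM in control, and was not called either (0.12, SE 0.09, edgeR adjusted p = 0.294). At 24 h ASNS was lower, with 140 and 153.6 CPM, against 228.8 and 194.8 CPM in control (-0.53, SE 0.1, edgeR adjusted p = 0.00265), as AARS, CARS and YARS were. ATF4 was not called at 24 h (-0.19), except as lower with library totals (-0.25, edgeR adjusted p = 0.0327). At 4 h EIF2AK4 was lower, with 103.5 and 99.2 CPM, against 136.9 and 146.3 CPM in control (-0.48, SE 0.06, edgeR adjusted p = 0.000268), and CEBPB was higher (0.46, SE 0.08, adjusted p = 0.00123).

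DDIT3 was also higher at 4 h (log2 change 0.37, edgeR adjusted p = 0.022) and at 24 h (0.36, adjusted p = 0.0284), but neither call held without control replicate 2 (adjusted p = 0.196 at 4 h and 0.22 at 24 h). The 4 h call was also lost without 4 h replicate 1 (edgeR adjusted p = 0.178), and the 24 h call without either 24 h library (adjusted p = 0.0764 and 0.191). ASNS at 4 h (-0.28, edgeR adjusted p = 0.0452) was not called without control replicate 1 (adjusted p = 0.338), either 4 h library (adjusted p = 0.125 and 0.224) or either 24 h library (adjusted p = 0.0644 and 0.0639), and TRIB3 was not called at 4 h (0.41) or 24 h (0.17).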

How the data were processed

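RNA-seq counts of 8 U87MG libraries were used, 2 per group, grouped by the labels and numbered as there. Total RNA was purified on columns, with DNase, and made into libraries by an Illumina protocol, per the labels. The values the authors deposited are raw whole-number counts for each gene symbol. The submitters' processing notes name Bowtie, with hg19 and GRCh37 as builds. How reads were counted, with which annotation and strand setting, and which Bowtie version was used is not given in the sources used here, so overlapping genes may share reads. The members, lists, tests and settings were chosen with earlier results of these data known. Of the names listed, 28 had been turned into dates (0.191 to 0.224% of counts) and were kept in the totals.

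The main test was that of edgeR 4.0.16 in R 4.3.3: filterByExpr, TMM factors of 0.87 to 1.08, and 1 quasi-likelihood fit of all 8 libraries with 1 coefficient per group and 4 residual degrees of freedom. The biological coefficient of variation was 7.15%. The SE of a log2 change is its size over the root of its F statistic. Alternatives were DESeq2 1.42.0, voom of limma 3.58.1, DESeq2 size factors in edgeR, library totals, no filter, at least 5 CPM in at least 2 libraries, a block for the replicate number, only the 2 groups compared, and each library left out, with a lone library taken to vary as the other groups do. Depth sets counting error, which is largest for PARS2 at 39 counts. The test was tried on simulated counts in which few genes changed, as many up as down. That trial cannot speak to the choice of scaling at 48 h. All members could be named, and full values went to the 5 largest called changes per compartment and direction against control, to members called in opposite directions, to the 3 smallest changes, to up to 3 called genes per partner list and to every sensing gene. Transcript lengths, exons and overlaps came from GENCODE on GRCh38 by symbol, with a length for 85.1% of genes tested, and promoters came from RefSeq.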

Additional observations from a re-analysis of the deposited data

Results flagged for a closer look

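In 9 genes the change against control was called in opposite directions at consecutive times and the step between those times was itself called by edgeR. At 48 h against 24 h the log2 step was 1.25 for YARS, 1.21 for AARS, 0.89 for SARS, 0.66 for CARS and 0.61 for QARS among the cytosolic genes, and 0.87 for YARS2, 0.81 for SARS2 and -1 for AARS2 among the mitochondrial genes. At 24 h against 4 h it was 0.92 for AARS2 and -1.13 for MARS2. These steps stayed called under every other setting and with each library left out. Each step is the difference of changes that were selected for their opposite calls. Its call thus largely follows from that selection and is no separate support. The 24 h calls against control of QARS, SARS, AARS2, MARS2, SARS2 and YARS2, were lost without single libraries. Of the 48 h calls against control, CARS was lost with library totals (-0.01, edgeR adjusted p = 0.881) and without control replicate 2 (adjusted p = 0.0536), and QARS with library totals (adjusted p = 0.269). SARS2 was lost with library totals (edgeR adjusted p = 0.468) and without control replicate 2 (adjusted p = 0.154) or 48 h replicate 1 (adjusted p = 0.0712). In 4 more genes both 4 h libraries lay below and both 48 h libraries above control: log2 changes at 48 h were 0.7 for VARS, 0.66 for FARS2, 0.36 for VARS2 and 1.08 for WARS2. Their 4 h calls were lost without single libraries, in 6 of 8 such fits and by DESeq2 for VARS and VARS2 and in 2 of 8 for FARS2 and WARS2. The 48 h call of VARS2 was lost with library totals (0.08, edgeR adjusted p = 0.481) and without control replicate 2 (adjusted p = 0.0736). The difference between 4 h and 48 h was not tested.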

How the results depend on the processing

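Values here are counts of genes called or median log2 changes, and the cause of each shift was not tested. With library totals as the only scaling, 7 cytosolic genes were lower at 4 h (median -0.07). At 24 h the cytosolic median was -0.21 and 0 mitochondrial genes were higher. At 48 h 8 cytosolic genes were higher and 7 lower (median 0.04), and 3 mitochondrial genes were higher (median -0.15). From 24 to 48 h 4 cytosolic genes were lower, and the medians were 0.32 (cytosolic) and -0.13 (mitochondrial). Library totals also turned the sign at 48 h, with no call, of CARS and RARS (-0.01 each), NARS (-0.02), RARS2 (-0.04) and CARS2 (-0.08), and gave calls of lower to IARS (-0.18), LARS (-0.2), WARS (-0.17), HARS2 (-0.21), SSB (-0.24) and EIF2AK4 (-0.2). From 24 to 48 h they turned PET112 to -0.01. With a minimum of 5 CPM in 2 libraries, 2 cytosolic genes were lower and 5 mitochondrial genes higher at 48 h (medians 0.23 and 0.05), and 4 cytosolic genes were lower from 24 to 48 h (medians 0.46 and 0.01). Fits of only the groups compared gave 5 cytosolic genes lower at 4 h, 11 cytosolic lower and 2 mitochondrial higher at 24 h, and 12 cytosolic lower from 4 to 24 h. DESeq2 called 1 cytosolic gene lower from 24 to 48 h (median 0.58, and 0.58 with its size factors in edgeR).

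With each library left out in turn, the cytosolic counts ranged from 1 to 7 higher and 1 to 6 lower at 4 h, from 0 to 2 higher and 4 to 10 lower at 24 h (median -0.19 to -0.11), and from 1 to 2 lower at 48 h (median 0.27 to 0.39). They ranged from 2 to 11 lower from 4 to 24 h, and from 1 to 3 lower from 24 to 48 h (median 0.47 to 0.63). The mitochondrial counts ranged from 1 to 4 higher at 4 h, from 0 to 2 higher and 0 to 4 lower at 24 h, from 5 to 8 higher at 48 h, and from 2 to 5 lower from 4 to 24 h. The 13 cytosolic rises at 48 h stayed at 12 or 13, and the 7 mitochondrial falls at 7. Same-numbered libraries deviated together at r of only -0.0049 to 0.14, so the numbers were not taken as pairs. With the replicate number as a block, 13 cytosolic genes were higher and 1 lower at 48 h.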
